A study of Mus musculus with 2 samples.

Results

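A list of 39 transcription factors that mark or specify neuron types of the hindbrain was followed through nuclei of mouse hindbrain neurons that project to the lumbar spinal cord. A factor counted as measured when it held at least 20 unique molecular identifiers (UMIs, each standing for 1 captured RNA molecule) over both count tables, and 35 of the 39 did, out of 23912 genes in the tables. Just outside this limit were Phox2a with 7 UMIs, Barhl2 with 13, Evx1 with 19 and Pou4f2 with 19. Just inside it were Isl1 with 23 UMIs, Barhl1 with 25, Evx2 with 26 and Tlx3 with 26.

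Both groups were TRAP2 mice aged 8 to 12 weeks, a strain in which an activity-dependent promoter drives an inducible Cre recombinase. AAV-retro-H2B-GFP, a virus taken up by axon terminals that labels the nucleus green, had been given into the lumbar cord, so that sorting for fluorescence enriched neurons with descending axons. The mice of 1 group were exposed to a hot water bath, and the other carries the label SNI with brush, an abbreviation the labels do not spell out. Hindbrain tissue from -7.3 to -5.2 mm relative to bregma was pooled within each treatment before nuclei were isolated, stained with DRAQ5, sorted, and made into 1 library each with the 10x 3' version 3 chemistry. Each treatment is thus 1 library of pooled animals, so there was no replicate, no test was possible, and every interval below is an exact 95% interval that covers counting error only. No unstimulated group was analysed here.

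In the developing hindbrain and spinal cord, homeodomain, LIM, paired box and related factors are switched on in domains along the dorsoventral axis and set which transmitter a neuron will use and where its axon will go. Pax2, Lhx1, Lhx5 and Lbx1 are known from dorsal inhibitory neurons, Tlx3 and Lhx2 or Lhx9 from excitatory ones. Other factors of the list, such as Zfhx3, Nfia, Nfib, Onecut and Ebf genes, are known for marking when a neuron was born or for shaping its later maturation, and many stay on in the adult.

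From the hot water bath came 425 nuclei with 16344606 UMIs in all, and from SNI with brush 288 with 11298755. The median nucleus had 36962 UMIs in the first and 32852.5 in the second. No barcode was shared by the libraries, and 3 and 2 nuclei called as doublets were removed. Against the label "neuron", 16 SNI with brush nuclei had more UMIs of 9 hepatocyte markers than of 5 neuron markers, and they were kept out of every comparison below. The remaining 422 and 270 nuclei are called neuronal. Mitochondrially encoded UMIs made up 0.148% of the hot water bath library and 0.514% of the SNI with brush library, and summed hepatocyte markers in neuronal nuclei stood at 1.11 and 30.4 counts per 1000000 UMIs (CPM). In the hot water bath 6 of the 9 hepatocyte markers, Alb among them, were at 0, and in SNI with brush none was, with 0 to 154 such UMIs in a neuronal nucleus. Choroid plexus markers were at 33.9 and 246.6 CPM, and oligodendrocyte markers at 73.6 and 168.7 CPM. The part of these differences in the results below was not tested, except where values without the nuclei concerned are given.

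Nuclei were put in transmitter classes by their UMIs of 3 vesicular glutamate transporters against 4 genes of GABA and glycine transmission, none of which is on the list. Glutamatergic nuclei, with at least 75% of at least 3 such UMIs from the glutamate genes, numbered 251 of 422 (59.5%) in the hot water bath and 122 of 270 (45.2%) in SNI with brush. Inhibitory nuclei, with at most 25%, numbered 60 (14.2%) and 104 (38.5%). Those with at least 2 UMIs of Slc6a5, the glycine transporter of glycinergic neurons, made up 20 of the 60 and 79 of the 104. Serotonergic nuclei, with at least 10 UMIs of Tph2, the enzyme that starts serotonin synthesis in neurons, numbered 26 and 3. The other 85 and 41 nuclei had mixed or few transmitter UMIs. This makeup differs between the libraries, so a level over all neuronal nuclei moves with it, and levels are therefore also given within classes. More nuclei of a type and more RNA per nucleus cannot be told apart in sums over all nuclei.

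**Figure D1:**
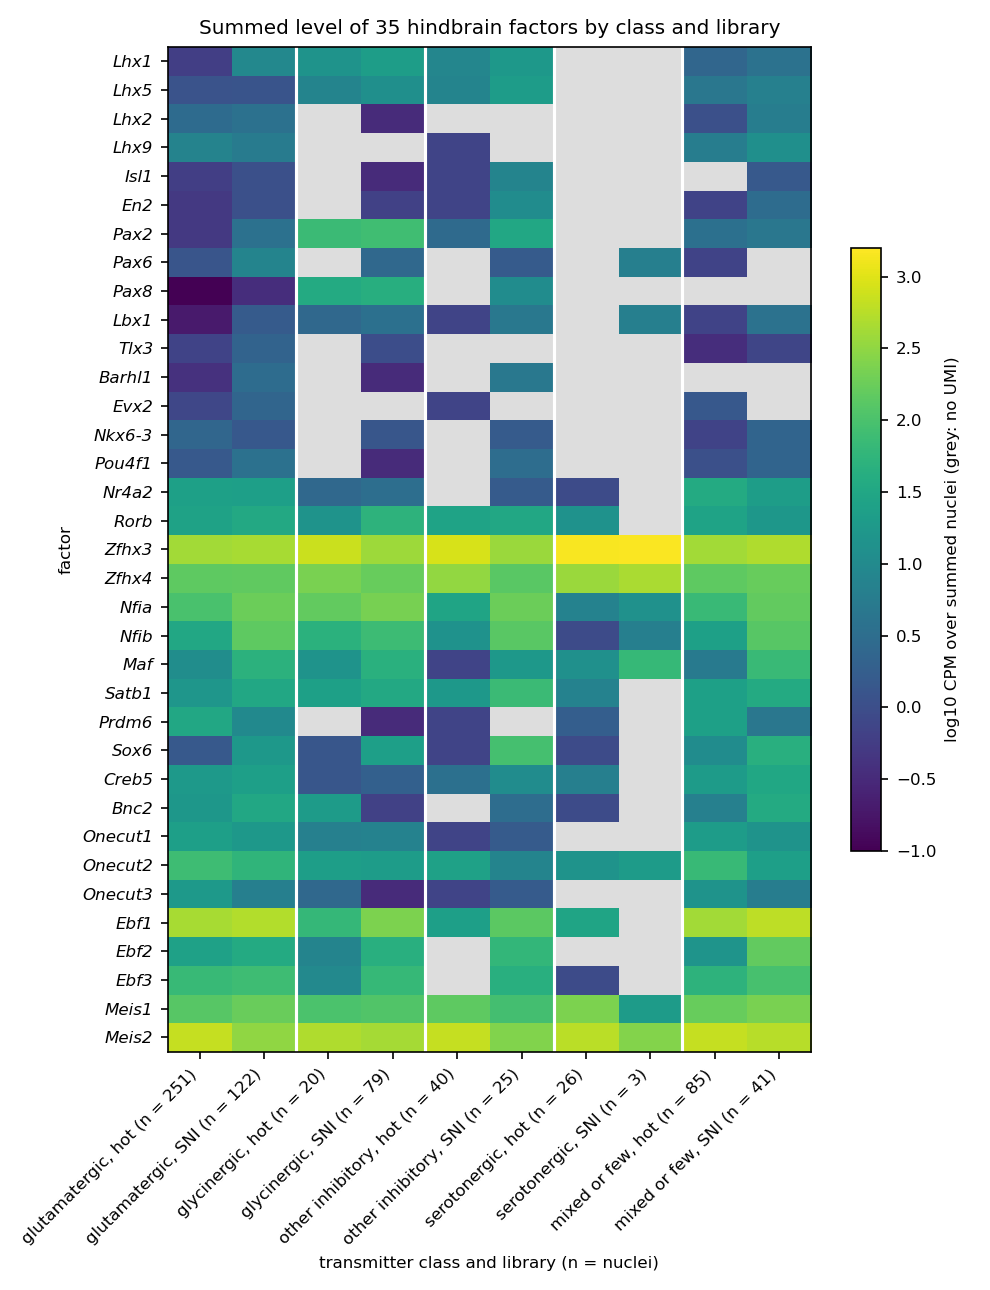
Level of the 35 measured factors (rows) in each transmitter class of each library (columns, with the number of nuclei), as log10 of CPM over summed nuclei; grey cells hold no UMI. Pax2 and Pax8 are brightest in glycinergic nuclei of both libraries, Zfhx3 in serotonergic nuclei, and Ebf2 and Ebf3 hold no UMI in the other inhibitory nuclei of the hot water bath.

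In both libraries the paired box factors Pax2 and Pax8, with the LIM factors Lhx1 and Lhx5 and the homeodomain factor Lbx1, were at least 2-fold higher in inhibitory than in glutamatergic nuclei. These were 5 of the 34 factors with enough UMIs in these classes, while 1.57% of 16873 genes met the same rule in both libraries. Pax2, known as a marker of inhibitory interneurons of the dorsal hindbrain and spinal cord, stood at 0.496 CPM in glutamatergic and 27.0 CPM in inhibitory nuclei of the hot water bath (log2 ratio 5.64, interval 4.46 to 7.44). The SNI with brush values were 3.73 and 72.8 CPM (log2 ratio 4.25, interval 3.64 to 5.00). All log2 ratios here use sums over nuclei with 0.5 UMI added to each count.

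Pax8, a close relative that acts beside Pax2, had 1 UMI in glutamatergic and 28 UMIs in inhibitory nuclei of the hot water bath (0.0992 and 13.0 CPM, log2 ratio 6.48, interval 4.44 to 12.39). Its counts in SNI with brush were 2 and 137 UMIs (0.355 and 37.2 CPM, log2 ratio 6.39, interval 4.83 to 9.77). In both libraries the whole interval thus lay above the 2-fold line. Within the inhibitory class both genes sat mainly in the glycinergic nuclei. Pax2 was at 71.8 CPM in glycinergic and 2.87 CPM in other inhibitory nuclei of the hot water bath, and at 80.8 and 33.5 CPM in SNI with brush. Pax8 was at 37.3 CPM in glycinergic nuclei of the hot water bath and without a UMI in the 40 other inhibitory nuclei, at least 17.3-fold higher against a floor of 3 UMIs over the group. Its levels in SNI with brush were 42.5 and 11.2 CPM. By nuclei, 15 of 20 glycinergic nuclei of the hot water bath had a Pax2 UMI and 3 of 40 other inhibitory nuclei did, at median depths of 35323 and 31305.5 UMIs. Serotonergic nuclei, which serve as a background because they are as deep (median 40064 UMIs), had Pax2 in 0 of 26 and Pax8 in 0 of 26.

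The promoters of these paired box genes are shown because of their class ratios. Their inhibitory over glutamatergic log2 ratios were the highest of the compared factors in both libraries. A window of Nr4a2, from the glutamatergic side, was also selected and is not printed. Each printed promoter is the RefSeq window of build GRCm38.p6, cut to the 250 bases before the start site. It is written in the direction of transcription. Pax8 lies on the minus strand of chromosome 2 (chr2:24475600-24475849), Pax2 on the plus strand of chromosome 19 (chr19:44756656-44756905, the most downstream of 3 listed starts), and Lhx9, a glutamatergic counterpart, on the minus strand of chromosome 1 (chr1:138842445-138842694). Capitals mark a Meis core, TGACAG, found by search on both strands.
Pax8: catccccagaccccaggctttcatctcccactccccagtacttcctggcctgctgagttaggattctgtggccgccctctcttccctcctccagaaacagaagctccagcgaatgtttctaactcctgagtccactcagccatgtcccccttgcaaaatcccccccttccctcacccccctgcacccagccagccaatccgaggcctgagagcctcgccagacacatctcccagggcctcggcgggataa
Pax2: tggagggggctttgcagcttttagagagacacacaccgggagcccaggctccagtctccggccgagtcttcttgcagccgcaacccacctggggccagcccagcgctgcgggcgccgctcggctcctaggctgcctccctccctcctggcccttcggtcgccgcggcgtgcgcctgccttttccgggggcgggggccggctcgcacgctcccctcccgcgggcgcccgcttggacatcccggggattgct
Lhx9: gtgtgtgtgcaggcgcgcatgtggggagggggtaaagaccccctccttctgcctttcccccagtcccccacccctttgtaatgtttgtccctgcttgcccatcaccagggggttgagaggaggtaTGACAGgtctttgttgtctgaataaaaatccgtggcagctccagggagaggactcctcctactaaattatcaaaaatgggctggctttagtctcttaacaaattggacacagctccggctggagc
Neither paired box window held a homeodomain core (TAATTA), an Onecut core (ATTGAT) or a Meis core, with both strands searched, which says only that these letters are not in these windows. Over whole RefSeq windows, which also take in 50 bases after the start, TGACAG occurred in 10 of 41 windows of the 24 factors with an entry and in 19.2% of all 32851 windows. TAATTA was in 2 of the 41 and in 5.29% of all, and ATTGAT in 2 and in 7.54%. For the listed factors these are shares of 24.4%, 4.88% and 4.88%, near those of all windows. The GC content of the printed windows was 60.4% for Pax8, 72.8% for Pax2 and 53.6% for Lhx9.

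The LIM factors followed the same division with fewer UMIs. Lhx1, which acts in the migration and dendrite patterning of many hindbrain and spinal neurons, was at 0.595 CPM in glutamatergic and 10.7 CPM in inhibitory nuclei of the hot water bath, and at 9.06 and 20.9 CPM in SNI with brush. Its relative Lhx5 was at 1.19 and 7.92 CPM in the hot water bath and at 1.24 and 13.8 CPM in SNI with brush. Lbx1, which separates dorsal inhibitory fates from excitatory ones, rested on 2 and 3 UMIs in the hot water bath and on 9 and 14 in SNI with brush. Its intervals reached below 0 in both libraries, so its direction is not certain from counting error alone. Under a stricter class rule, 90% in place of 75%, 3 factors in place of 5 met the criterion.

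On the glutamatergic side, 13 factors were at least 2-fold lower in inhibitory than in glutamatergic nuclei of both libraries, against 1.24% of all genes. These 13 were Lhx2, Lhx9, Pax6, Tlx3, Pou4f1, Nr4a2, Onecut1, Onecut2, Onecut3, Ebf1, Prdm6, Creb5 and Bnc2. Where factors without a UMI in a class are set to a floor of 3 UMIs, 10 of them remained, and Pax6, Tlx3 and Pou4f1 did not meet the criterion. The median log2 ratio over the 34 factors was -0.96 in the hot water bath and -0.50 in SNI with brush, or -0.31 and -0.50 with the floor, against 0.036 and 0.079 over all 16873 genes.

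Prdm6, a PR domain factor of the ventral neural tube, had 330 UMIs in glutamatergic nuclei and 1 in inhibitory nuclei of the hot water bath (32.7 and 0.466 CPM, log2 ratio -5.55, interval -11.44 to -3.65). For SNI with brush the counts were 56 and 1 (9.95 and 0.271 CPM, log2 ratio -4.62, interval -10.53 to -2.66). This was the most one-sided factor on the glutamatergic side in the hot water bath.

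Nr4a2, an orphan nuclear receptor, was at 24.8 and 0.932 CPM in glutamatergic and inhibitory nuclei of the hot water bath, and at 23.3 and 2.99 CPM in SNI with brush. Of its 171 UMIs in SNI with brush, 44 came from 1 nucleus. Creb5, a leucine zipper factor, was at 18.3 and 2.80 CPM in the hot water bath and at 23.1 and 3.53 CPM in SNI with brush. Between libraries, the glutamatergic levels of both genes had intervals that included 0 on the log2 scale (-0.41 to 0.22 for Nr4a2 and -0.0024 to 0.66 for Creb5).

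Lhx9, which marks commissural and other excitatory neurons of the dorsal hindbrain, had 76 UMIs in glutamatergic and 1 in inhibitory nuclei of the hot water bath. The SNI with brush counts were 32 and 0, at least 6.98-fold lower in the inhibitory class. Lhx2, its paralog, had 30 and 0 UMIs in the hot water bath, at least 2.13-fold lower, and 21 and 1 in SNI with brush. Both genes thus had at most 1 UMI in inhibitory nuclei of either library. Bnc2, a zinc finger factor, was at 16.9 and 6.99 CPM in the hot water bath, where 1 nucleus held 72 of 205 UMIs, and at 32.5 and 1.09 CPM in SNI with brush. That nucleus was glutamatergic, and without it the hot water bath log2 ratio of -1.23 was -0.44 (-1.37 to 0.31), under 2-fold. In the inhibitory class 12 of its 15 UMIs also came from 1 nucleus, so the level of Bnc2 in the hot water bath rests on few nuclei in either class. Without the 1 nucleus richest in each factor, 11 of the 13 factors met the rule, with Bnc2 and Tlx3 lost.

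Onecut factors, cut domain proteins that mark early-born neurons, were lower in inhibitory nuclei for each of the 3 paralogs in both libraries. Onecut1 was at 23.5 and 2.80 CPM in glutamatergic and inhibitory nuclei of the hot water bath and at 17.6 and 6.24 CPM in SNI with brush. Onecut2 was at 78.5 and 24.2 CPM in the hot water bath and at 55.1 and 18.5 CPM in SNI with brush. Onecut3 was at 18.9 and 1.40 CPM and at 6.58 and 0.543 CPM.

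**Figure D2:**
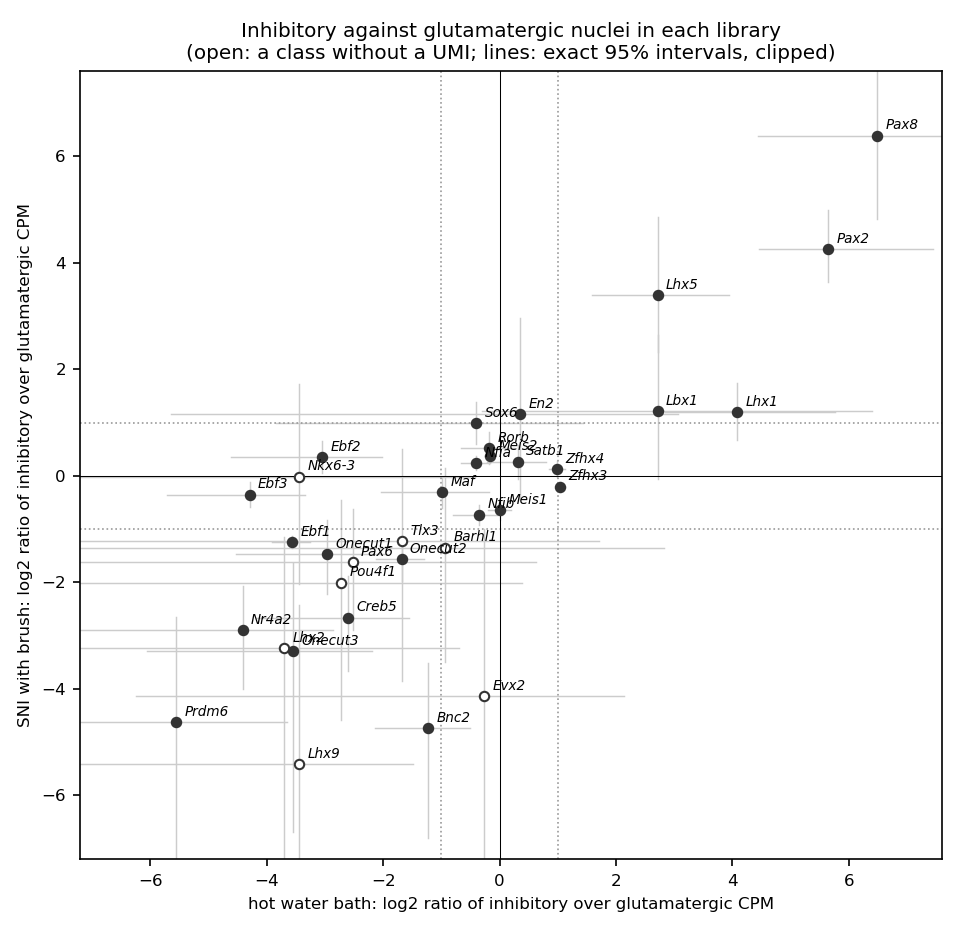
Log2 ratio of inhibitory over glutamatergic CPM in the hot water bath (x axis) and in SNI with brush (y axis), 1 point per factor, with exact 95% intervals as grey lines and the 2-fold limits dotted. Pax2 and Pax8 lie at the upper right and Prdm6 and Lhx9 at the lower left, while Ebf2 and Ebf3 are far to the left but near 0 on the y axis.

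The EBF factors, helix-loop-helix proteins of neuronal differentiation, had other ratios in the 2 libraries in this contrast. Ebf1 was at 448.2 CPM in glutamatergic and 37.7 CPM in inhibitory nuclei of the hot water bath (log2 ratio -3.56, interval -3.91 to -3.25). The SNI with brush levels were 526.2 and 221.5 CPM (-1.25, interval -1.36 to -1.14). The glutamatergic level was thus similar in the libraries and the inhibitory level was not.

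Ebf2 had 252 UMIs in glutamatergic and 6 in inhibitory nuclei of the hot water bath (log2 ratio -3.05), and 209 and 175 in SNI with brush (37.1 and 47.5 CPM). Ebf3 was at 68.5 and 3.26 CPM in the hot water bath and at 78.2 and 61.1 CPM in SNI with brush. Among inhibitory nuclei of the hot water bath, 1 nucleus held 5 of the 6 Ebf2 UMIs, and 1 held all 7 Ebf3 UMIs. In inhibitory nuclei of SNI with brush these UMIs sat in few nuclei, with 92.0% of Ebf2 UMIs and 73.8% of Ebf3 UMIs in 11 of 104 nuclei. For Ebf2 the SNI with brush ratio of 0.36 was -0.09 without 1 nucleus that held 48 of the 175 UMIs, -0.17 as a mean over nuclei, -0.16 under the 90% class rule, -0.04 among nuclei with at most 0.5% mitochondrial UMIs and 1.20 when at least 10 transmitter UMIs were required, so its sign depends on these choices. For Ebf1 the share in 11 of 104 inhibitory nuclei of SNI with brush was 68.1%, near that of Ebf3. Its level per nucleus there ran from 0 to 2816 CPM with a median of 32.5 CPM. The range in inhibitory nuclei of the hot water bath was 0 to 311.8 CPM with a median of 0.

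The 16 factors that met neither rule in both libraries were Barhl1, Ebf2, Ebf3, En2, Evx2, Maf, Meis1, Meis2, Nfia, Nfib, Nkx6-3, Rorb, Satb1, Sox6, Zfhx3 and Zfhx4. Zfhx3, a large zinc finger homeodomain protein, was at 407.5 and 840.6 CPM in glutamatergic and inhibitory nuclei of the hot water bath and at 441.8 and 383.9 CPM in SNI with brush. Its paralog Zfhx4 was at 146.3 and 289.4 CPM and at 149.6 and 164.0 CPM. The log2 ratios were 1.04 and 0.98 in the hot water bath and -0.20 and 0.13 in SNI with brush, and the difference between the libraries was not tested. Meis2, a TALE homeodomain cofactor of Hox proteins, was at 682.5 and 611.3 CPM in the hot water bath and at 314.6 and 405.0 CPM in SNI with brush. Its paralog Meis1 was at 128.9 and 129.1 CPM and at 171.9 and 109.4 CPM.

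Serotonergic nuclei were read from the 26 hot water bath nuclei, since SNI with brush had only 3. Zfhx3 was at 1425 CPM there against 407.5 CPM in glutamatergic nuclei (log2 ratio 1.81, interval 1.72 to 1.89), and it ranged from 827.4 to 2270 CPM with no nucleus at 0. Zfhx4 was at 367.8 CPM against 146.3 CPM (1.33, interval 1.17 to 1.49). The 3 SNI with brush nuclei had Zfhx3 at 1488 CPM and Zfhx4 at 456.3 CPM, with Zfhx3 from 1004 to 2574 CPM per nucleus.

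NFI factors, which act late in neurogenesis, were low in serotonergic nuclei of the hot water bath. Nfia was at 7.30 CPM against 96.9 CPM in glutamatergic nuclei (log2 ratio -3.64, interval -4.95 to -2.75). Nfib had 1 UMI in these 26 nuclei, at 0.913 CPM against 33.0 CPM. Ebf1 was at 28.3 CPM against 448.2 CPM. Ebf2, Onecut1 and Onecut3 had no UMI, at least 9.13-fold, 8.58-fold and 6.92-fold lower than in glutamatergic nuclei. Meis1 was higher, at 230.9 CPM against 128.9 CPM, and Meis2 was at 581.4 CPM against 682.5 CPM. In these nuclei Lhx1, Pax2 and Pax8 were all at 0. The 40 other inhibitory nuclei of the hot water bath fell under the Slc6a5 and Tph2 limits of the glycinergic and serotonergic classes. They had Zfhx3 at 896.4 CPM, Zfhx4 at 324.8 CPM, Nfib at 13.6 CPM and Ebf1 at 23.7 CPM. No UMI of Ebf2, Ebf3 or Pax8 was found in them. Lmx1b, a factor outside the list, had a UMI in 19 of these 40 nuclei. It was at 70.3 CPM there, at 158.8 CPM in serotonergic nuclei and at 0 in glycinergic nuclei. Bcl11b, also outside the list, went the other way, at 59.5 CPM there against 0 in serotonergic nuclei. Whether some of these 40 nuclei are serotonergic was not tested.

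Between the libraries, over all neuronal nuclei, 17 of the 35 factors were at least 2-fold higher in SNI with brush, against 16.4% of 17534 genes, and 2 were at least 2-fold lower, against 3.59% of genes. The median log2 ratio, with the hot water bath as the base, was 0.79 for the factors and 0.23 for all genes. The 17 were Lhx1, Lhx5, En2, Pax2, Pax6, Pax8, Lbx1, Tlx3, Barhl1, Pou4f1, Isl1, Nfia, Nfib, Maf, Satb1, Ebf2 and Sox6, and the 2 were Prdm6 and Onecut3. Scaling by the median ratio over well counted genes in place of total UMIs would lower every ratio over all neuronal nuclei by 0.17, and those within glutamatergic nuclei by 0.12. With nuclei above 0.5% mitochondrial UMIs left out, which kept 402 and 192 nuclei, 11 factors were higher and 2 lower. Of the 6 lost, En2, Tlx3, Barhl1 and Isl1 fell under the 20 UMI limit, and Pou4f1 (0.98) and Satb1 (0.89) under the 2-fold limit. A limit of 50 UMIs also left 11 higher.

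**Figure D3:**
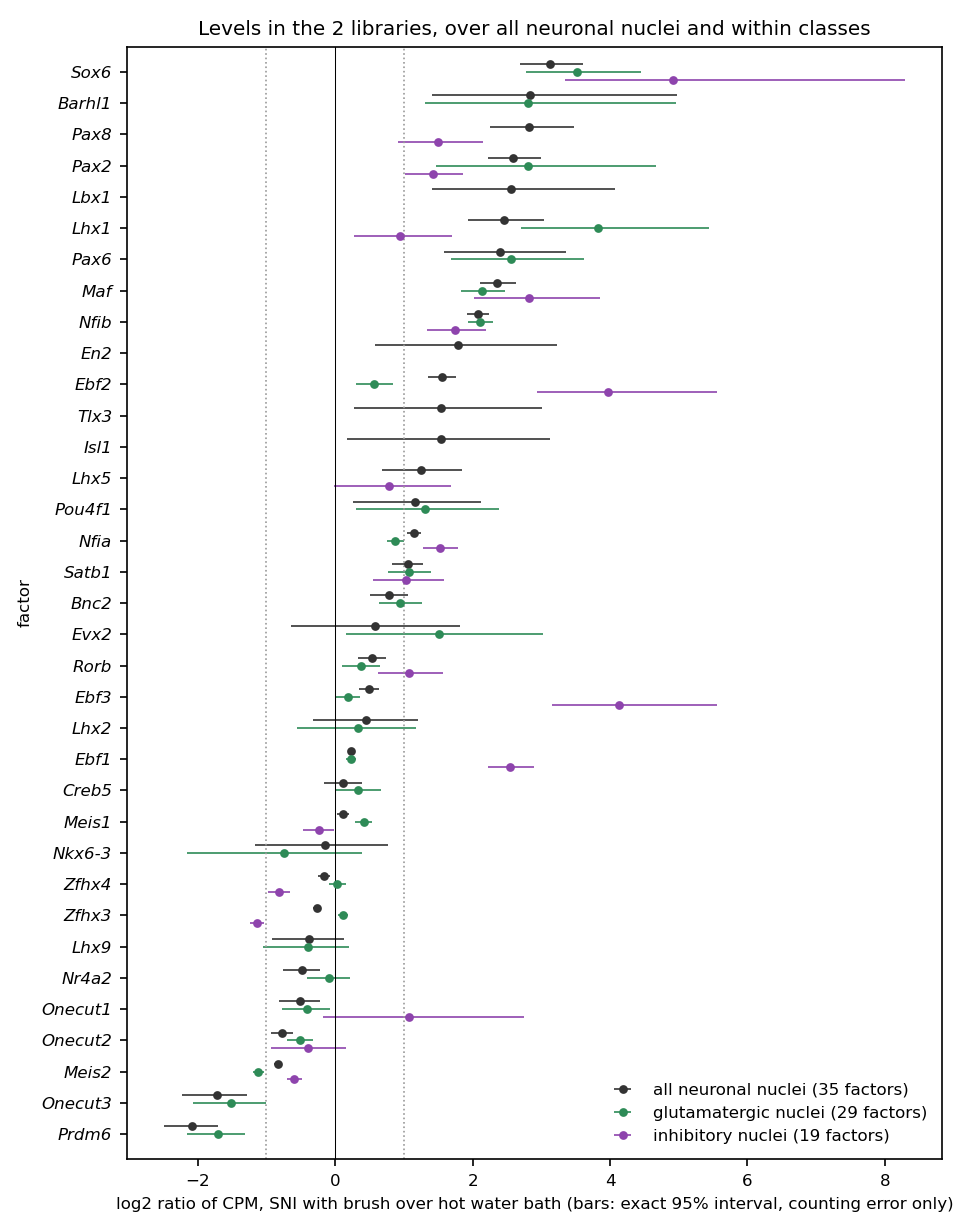
Log2 ratio of CPM between libraries, SNI with brush divided by hot water bath, for each factor, over all neuronal nuclei (black), glutamatergic nuclei (green) and inhibitory nuclei (purple), with exact 95% intervals for counting error. Nfib, Maf and Sox6 are right of the 2-fold line in all 3 sets of nuclei, Ebf1, Ebf2 and Ebf3 far right in inhibitory nuclei, and Prdm6 and Onecut3 left of it.

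Factors of inhibitory neurons were among the higher ones. Pax2 was at 4.52 CPM in the hot water bath and 27.4 CPM in SNI with brush over all neuronal nuclei (log2 ratio 2.59, interval 2.22 to 2.99). Pax8 was at 1.79 and 12.9 CPM (2.83, interval 2.26 to 3.48). Within inhibitory nuclei alone the ratios were 1.42 (1.01 to 1.86) for Pax2 and 1.49 (0.92 to 2.15) for Pax8. Within glycinergic nuclei alone the levels of both were close, Pax2 at 71.8 and 80.8 CPM and Pax8 at 37.3 and 42.5 CPM, with intervals that overlap. The share of glycinergic nuclei thus moved with these ratios, from 4.74% of neuronal nuclei in the hot water bath to 29.3% in SNI with brush, and its part in them was not tested.

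Nfib was at 28.3 and 119.7 CPM over all neuronal nuclei (2.08, interval 1.92 to 2.24). It was higher within both main classes, at 33.0 and 143.1 CPM in glutamatergic nuclei (2.11) and at 25.6 and 86.3 CPM in inhibitory nuclei (1.74, interval 1.34 to 2.19). Within glycinergic nuclei alone the difference was under 2-fold, at 47.9 and 76.6 CPM (0.66, interval 0.17 to 1.23). When at least 10 transmitter UMIs were required, which left 62 and 63 glutamatergic nuclei, the glutamatergic ratio was 0.87. Nfib UMIs sat in few glutamatergic nuclei, with 100% in 26 of 251 in the hot water bath and 68.2% in 13 of 122 in SNI with brush. The richest nucleus held 101 UMIs in the hot water bath, against 232 in the others, and 136 against 669 in SNI with brush. Nfia was at 82.9 and 183.8 CPM over all neuronal nuclei (1.15, interval 1.05 to 1.25), with ratios of 0.88 in glutamatergic, 1.52 in inhibitory and 0.46 (0.18 to 0.76) in glycinergic nuclei. Both genes were also high in the 16 hepatocyte marker nuclei, at 1267 CPM for Nfia and 852.6 CPM for Nfib. If all hepatocyte marker UMIs of SNI with brush neuronal nuclei came with RNA of such nuclei, that share would bring 2.58 CPM of Nfia and 1.74 CPM of Nfib. These values cover hepatocyte RNA only, as a mean over nuclei. The part of RNA from glia or choroid plexus was not tested.

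Maf, a leucine zipper factor of several interneuron types, was at 9.72 and 49.9 CPM over all neuronal nuclei (2.36, interval 2.10 to 2.63), at 11.5 and 50.8 CPM in glutamatergic nuclei, and at 5.59 and 41.0 CPM in inhibitory nuclei. Sox6, an SRY-box factor, was at 3.03 and 26.6 CPM over all neuronal nuclei (3.12, interval 2.69 to 3.60). In the hot water bath 28 of its 49 UMIs came from 1 nucleus. In inhibitory nuclei it had 2 UMIs in the hot water bath and 129 in SNI with brush, where 97.7% of them lay in 11 of 104 nuclei. In glutamatergic nuclei its ratio of 3.52 was 1.07 among nuclei with at most 0.5% mitochondrial UMIs. At the mean hepatocyte marker share above, 0.835 CPM of Sox6 would come with such RNA, and the part of other cell types was not tested.

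Satb1, a chromatin organiser, was at 17.2 and 35.8 CPM over all neuronal nuclei (1.06, interval 0.83 to 1.29), with 1.08 in glutamatergic and 1.04 in inhibitory nuclei. Lhx1 was at 2.23 and 12.3 CPM (2.45, interval 1.93 to 3.04), and here the glutamatergic class differed more, at 0.595 and 9.06 CPM (3.83, interval 2.71 to 5.44), than the inhibitory class, at 10.7 and 20.9 CPM (0.94, interval 0.28 to 1.70). Pax6 was at 0.928 and 5.01 CPM (2.40, interval 1.59 to 3.36), and Barhl1 rested on 4 and 21 UMIs (2.84, interval 1.41 to 4.98). Isl1, with 7 and 14 UMIs, had 6 of the 7 in 1 nucleus.

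On the lower side, Prdm6 was at 24.8 CPM in the hot water bath and 5.84 CPM in SNI with brush (-2.08, interval -2.49 to -1.70). By nuclei, 82 of 422 (19.4%) and 17 of 270 (6.30%) had a Prdm6 UMI. In glutamatergic nuclei it was at 32.7 and 9.95 CPM (-1.71, interval -2.15 to -1.31), or -0.65 when at least 10 transmitter UMIs were required. Onecut3 was at 14.5 and 4.36 CPM (-1.73, interval -2.22 to -1.28), and in glutamatergic nuclei at 18.9 and 6.58 CPM. Its paralogs Onecut1 (-0.52) and Onecut2 (-0.77) also had ratios below 0 over all neuronal nuclei but did not reach 2-fold. Meis2 was at 666.3 and 373.9 CPM (-0.83, interval -0.89 to -0.78) and crossed the 2-fold line in glutamatergic nuclei, at 682.5 and 314.6 CPM (-1.12).

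Within glutamatergic nuclei 10 of 29 factors were at least 2-fold higher in SNI with brush, against 13.7% of 15753 genes, and 3 were lower, against 3.69%. With at least 10 transmitter UMIs required these counts were 5 and 1, and with a limit of 50 UMIs 6 factors were higher. The 10 were Lhx1, Pax2, Pax6, Barhl1, Evx2, Pou4f1, Nfib, Maf, Satb1 and Sox6, and the 3 were Prdm6, Onecut3 and Meis2. The median over the 29 was 0.37, against 0.18 over all genes.

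Within inhibitory nuclei 12 of 19 factors were higher, against 15.8% of 13525 genes, and 1, Zfhx3, was lower, against 3.40% of genes. The median over the 19 was 1.07, against 0.25 over all genes. The 12 were Pax2, Pax8, Nfia, Nfib, Maf, Satb1, Onecut1, Ebf1, Ebf2, Ebf3, Sox6 and Rorb. Glycinergic nuclei made up 20 of the 60 inhibitory nuclei in the hot water bath and 79 of the 104 in SNI with brush. Within glycinergic nuclei alone 6 of the 19 factors were higher, against 11.8% of 12283 genes, and 0 were lower, against 2.39%. These 6 were Maf (1.59), Ebf1 (1.89), Ebf2 (2.38), Ebf3 (2.69), Sox6 (3.57) and Rorb (1.75). Pax2, Pax8, Nfia, Nfib, Satb1 and Onecut1 were under 2-fold and Zfhx3 was at -0.93. Of the 6, all but Ebf1 rest on few UMIs in the 20 hot water bath nuclei. The richest nucleus of each held 7 of 7 Ebf3, 5 of 6 Ebf2, 9 of 11 Rorb and 6 of 11 Maf UMIs. Sox6 had 1 UMI there, with an interval of 1.62 to 9.47. The intervals of Maf (0.76 to 2.68) and Rorb (0.93 to 2.84) reached below the 2-fold line. In the whole inhibitory class Ebf1 had 81 and 816 UMIs (2.55, interval 2.22 to 2.90), Ebf2 6 and 175 (3.98, interval 2.94 to 5.55) and Ebf3 7 and 225 (4.13, interval 3.16 to 5.56). Of the hot water bath UMIs, 1 nucleus held 5 of the 6 of Ebf2, and 1 held all 7 of Ebf3. The interval of Onecut1, at 6 and 23 UMIs, reached below 0 (-0.18 to 2.75). Zfhx3 was at 840.6 and 383.9 CPM (-1.13, interval -1.23 to -1.03). In this class the mitochondrial share was 0.349% and 0.675%, and hepatocyte markers were at 0.932 and 59.2 CPM, mostly from 1 nucleus with 154 such UMIs. Without the 1 inhibitory nucleus of SNI with brush that was rich in hepatocyte or glial UMIs, 11 factors were higher and 1 lower.

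To ask which factors were detected together, each nucleus was thinned to 9000 UMIs, a depth every nucleus reached, and a factor was called on with at least 2 UMIs. A nucleus then had a median of 3 factors on in each library, from 0 to 7 in the hot water bath and from 0 to 8 in SNI with brush. Without thinning the medians were 6 and 7. Meis2 alone was on in over 50% of nuclei of both libraries, in 352 of 422 and 143 of 270. Leaving Meis2 aside, combinations were varied: the 251 glutamatergic nuclei of the hot water bath held 130 different sets, and the 122 of SNI with brush held 93. The 60 inhibitory nuclei of the hot water bath held 24 sets, and 17 of them had Zfhx3 and Zfhx4 and no other factor on. The 104 of SNI with brush held 77 sets, and 4 of them had that one. Serotonergic nuclei of the hot water bath had Zfhx3 with Zfhx4, alone in 8 and with Meis1 in 12 of 26 nuclei.

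For each pair, the count of nuclei with both factors on was divided by the count that the product of their shares gives within the library. The 8 highest pairs of the hot water bath were Nr4a2 with Creb5 (6.77), Nfia with Nfib (4.02), Ebf2 with Ebf3 (3.49), Nr4a2 with Prdm6 (3.43), Onecut2 with Prdm6 (2.67), Ebf1 with Prdm6 (2.45), Ebf1 with Ebf2 (2.12) and Nr4a2 with Ebf1 (1.96). In SNI with brush 3 of these 8 reached a ratio of 2, with a median of 1.69 over the 8, and for Nr4a2 with Creb5 and Onecut2 with Prdm6 this rests on 2 and 1 nuclei. Ranked in SNI with brush, the 8 highest were Nfib with Creb5, Ebf2 with Ebf3, Ebf2 with Rorb, Maf with Ebf3, Maf with Ebf2, Nfia with Sox6, Nfib with Satb1 and Bnc2 with Meis1, from 2.66 downwards. Of these, 4 reached 2 in the hot water bath, where Nfia with Sox6 and Maf with Ebf2 rest on 1 nucleus each and Nfib with Satb1 on 2. Without thinning, these 3 pairs were at 0.79, 0.98 and 2.16 in the hot water bath, and Ebf2 with Ebf3 was at 2.12. Ebf2 with Ebf3 was the 1 pair on both lists, in 7 nuclei where 2.00 would be the product in the hot water bath and in 12 where it would be 4.94 in SNI with brush. The thinning is random, and in a second draw Nr4a2 with Prdm6 (0.676) and Onecut2 with Prdm6 (0.942) in the hot water bath were under 1, so these 2 pairs depend on the draw.

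Among pairs set by family or known lineage, Pax2 and Pax8 were clearest without thinning. In the hot water bath 5 of the 7 nuclei with Pax8 on also had Pax2 on, against 0.216 by the product of shares, and in SNI with brush 23 of 26 did, against 5.20. After thinning, Pax8 was on in 0 hot water bath nuclei, and both were on in 4 SNI with brush nuclei, against 0.667. These products use shares over neuronal nuclei of all classes, while both genes sat mainly in glycinergic nuclei. The part of class in the excess was not tested. Within inhibitory nuclei of SNI with brush, the 18 with Pax2 on after thinning had Pax8 at 78.1 CPM and the other 86 at 28.8 CPM, a log2 ratio of 1.45 (0.90 to 1.96). Lhx2 and Lhx9 were on together in 3 nuclei of the hot water bath and 2 of SNI with brush without thinning, against 0.415 and 0.222 by the product.

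Zfhx3 and Nfib were on together less often than the product of their shares, in 2 nuclei against 7.66 in the hot water bath and in 11 against 26.6 in SNI with brush. Without thinning, where Zfhx3 was on in most nuclei, the ratios were 0.90 and 0.79. By level, Zfhx3 ranged from 0 to 866.3 CPM with a median of 48.2 CPM in the 14 hot water bath nuclei with Nfib on, and from 0 to 4123 CPM with a median of 251.2 CPM in the other 408. The SNI with brush median was 54.0 CPM in the 57 nuclei with Nfib on and 261.5 CPM in the other 213, with ranges that overlap (0 to 1923 and 0 to 3150 CPM).

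In summed UMIs the Zfhx3 log2 ratio of nuclei with Nfib on over the others was -2.60 (-3.05 to -2.21) in the hot water bath and -1.52 (-1.68 to -1.36) in SNI with brush. Of the UMIs with Nfib on, 1 nucleus held 40.8% in the hot water bath and 30.5% in SNI with brush. By class in SNI with brush, the ratio was -0.96 (-1.15 to -0.78) in glutamatergic and -2.35 (-2.79 to -1.96) in inhibitory nuclei. Too few hot water bath nuclei had Nfib on for a split by class. The hot water bath nuclei without Nfib on included all 26 serotonergic nuclei, where Zfhx3 was at 1425 CPM, and the part of class in this ratio was not tested. Over a second draw, a depth of 5000 UMIs, the mitochondrial limit and leaving out nuclei with liver or glial UMIs, it lay between -3.56 and -2.53 in the hot water bath and between -1.90 and -0.86 in SNI with brush. Zfhx4 was also lower where Nfib was on (-2.30 and -1.60), while Nfia, a relative of Nfib, was higher in the hot water bath (1.69, interval 1.42 to 1.95) and in SNI with brush (0.99). The lower level was not particular to Zfhx3 and Zfhx4. Meis2 was at -2.71 in the hot water bath and -0.52 in SNI with brush, where it was -1.29 in glutamatergic and 0.48 in inhibitory nuclei.

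**Figure D4:**
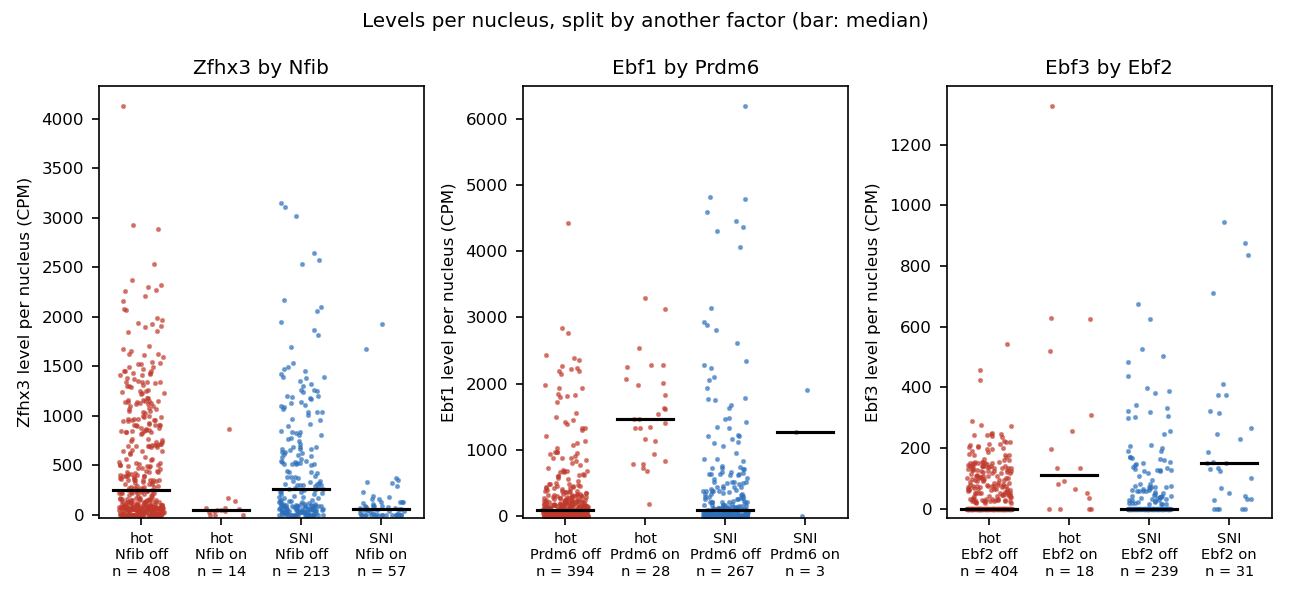
Level per nucleus in CPM of Zfhx3 by Nfib, Ebf1 by Prdm6 and Ebf3 by Ebf2, with nuclei called on or off for the second factor after thinning; red points are hot water bath nuclei, blue points SNI with brush nuclei, bars medians. Zfhx3 medians are 48.2 and 54.0 CPM where Nfib is on, and Ebf1 has a median of 1461 CPM in the 28 hot water bath nuclei with Prdm6 on.

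Prdm6 was on in 28 nuclei of the hot water bath, 24 of them glutamatergic. Ebf1 ranged from 182.9 to 3301 CPM in these 28, with a median of 1461 CPM and none at 0, and from 0 to 4428 CPM in the other 394, with a median of 85.9 CPM and 107 at 0. Within glutamatergic nuclei the summed level of Ebf1 was 1528 CPM with Prdm6 on and 344.2 CPM without (log2 ratio 2.15, interval 2.06 to 2.24). Zfhx3 went the other way, at 91.5 and 437.9 CPM (-2.25, interval -2.59 to -1.94), and Nfib had 1 UMI in these 24 nuclei. In SNI with brush only 3 nuclei had Prdm6 on, and the comparison was not made.

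Ebf3 was higher where Ebf2 was on in both libraries. In the hot water bath it was at 190.2 CPM in 18 nuclei with Ebf2 on and 47.1 CPM in the others (log2 ratio 2.02, interval 1.71 to 2.31), and in SNI with brush at 227.1 CPM in 31 nuclei and 56.1 CPM in the others (2.02, interval 1.80 to 2.24). Per nucleus the medians were 111.6 and 149.9 CPM with Ebf2 on, and 0 without it in both libraries. Within glutamatergic nuclei the log2 ratios were 1.76 and 1.17. Prdm6 had no UMI in the 18 hot water bath nuclei with Ebf2 on, where the others were at 25.7 CPM. Creb5 was at 99.1 CPM in the 22 hot water bath nuclei with Nr4a2 on and at 11.9 CPM in the others (3.07, interval 2.65 to 3.46), and at 81.9 and 14.9 CPM within glutamatergic nuclei.

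Other hindbrain and regional factors, a list of 53 that shares no gene with the 39, gave 47 with at least 20 UMIs. Of these 24 were at least 2-fold higher in SNI with brush over all neuronal nuclei, against 16.4% of all genes, and the median log2 ratio over the 47 was 1.16, against 0.23. Examples with many UMIs were Foxp2, a forkhead factor, at 5.57 and 59.5 CPM (3.41), Bcl11a, a zinc finger repressor, at 28.2 and 79.1 CPM (1.49), Nfix, the relative of Nfia and Nfib, at 3.96 and 17.8 CPM (2.16), and Zic1 at 1.98 and 15.1 CPM (2.91). Gata3, which marks inhibitory V2b neurons among others, was at 5.14 and 11.5 CPM (1.16). In the hot water bath 45 of its 83 UMIs were in serotonergic nuclei, at 41.1 CPM against 14.4 CPM in inhibitory nuclei. Between classes 10 of 44 of them were at least 2-fold higher and 4 lower in inhibitory nuclei of both libraries, against 1.57% and 1.24% of all genes.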

How the data were processed

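Per the labels' protocols, nuclei were sorted and sequenced with the 10x 3' kit, with 1 library per treatment. The authors deposited, per library, a table of UMI counts by gene and nucleus. Its whole numbers were used as raw counts. The submitters' processing notes name Cell Ranger 5.0, the mm10 build and Seurat without a version. Only 425 of 723 and 288 of 850 listed barcodes have counts, after a filter that the labels do not describe.

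Nuclei called as doublets by Scrublet (scanpy 1.11.5, python 3.11.15, expected rate 0.06) were removed, 3 and 2. A nucleus was non-neuronal when its hepatocyte marker UMIs exceeded its neuron marker UMIs. Counts were summed over the nuclei of a class and given per 1000000 UMIs. Ratios have exact conditional intervals and shares exact Clopper-Pearson intervals (scipy 1.17.1), which cover counting error only. Genes needed 20 UMIs over the nuclei compared. Thinning drew UMIs without replacement with a fixed seed. The ratio was checked on simulated counts, and the thinning on nuclei of the hot water bath.

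All 39 factors were located in the mm10 annotation, and 24 have a RefSeq promoter entry. Full values were given for factors with at least 100 UMIs that differed at least 2-fold between libraries, or at least 4-fold between classes in the same direction in both libraries, or were the highest or lowest of their family. Rorb, with 794 UMIs the higher of the 2 nuclear receptors, was given only in part. Pairs named were the 8 of highest ratio in each library, with at least 5 nuclei, and pairs set by family or lineage. Of the related factors, those with the most UMIs among those at least 2-fold different were named, except 1 that is not reported here. Factors that fell outside this rule were named to complete a count, and the splits by Nfib, Prdm6, Ebf2, Pax2 and Nr4a2 were chosen after the values were seen. The factors, gene lists and rules were chosen with earlier results of these data known. Alternatives were other class rules, UMI limits, scalings, depths and mitochondrial limits. Those added after seeing the data were a second draw, pairs without thinning, levels split by another factor, leaving out nuclei with hepatocyte or glial UMIs or the 1 nucleus richest in a factor, and glycinergic nuclei alone.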

Additional observations from a re-analysis of the deposited data

Results flagged for a closer look

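The inhibitory over glutamatergic log2 ratio of 4 factors had opposite signs in the libraries, a difference that was not tested. It was 1.04 for Zfhx3 in the hot water bath and -0.20 in SNI with brush. Nfia had -0.40 and 0.24, Ebf2 -3.05 and 0.36, and Meis2 -0.16 and 0.36. The SNI with brush over hot water bath ratio of 2 factors had opposite signs in the classes, which was not tested either. It was 0.12 in glutamatergic and -1.13 in inhibitory nuclei for Zfhx3, and 0.41 and -0.24 for Meis1. The Zfhx3 value in glutamatergic nuclei was -0.01 when at least 10 transmitter UMIs were required.

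The 16 SNI with brush nuclei kept out of the comparisons had hepatocyte markers at 14939 CPM and neuron markers at 663.7 CPM. Listed factors at a level above that of SNI with brush neuronal nuclei included the 6 given next. Maf was slightly above, at 53.0 against 49.9 CPM. Lbx1, Isl1 and En2 were also above, with at most 2 UMIs each in the 16 nuclei. Nfia, at 1267 CPM, was at 183.8 CPM in the neuronal nuclei, and Nfib, at 852.6 CPM, was at 119.7 CPM there. Sox6 stood at 410.2 CPM against 26.6 CPM, and Zfhx4 at 244.3 CPM against 160.8 CPM. Onecut1 and Onecut2, which are also known as hepatic factors, were at 159.0 and 454.0 CPM against 13.1 and 38.2 CPM. Pax2, Pax8, Lhx1 and Prdm6 had no UMI in these nuclei.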

How the results depend on the processing

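With 1 library per treatment, spread between animals could not be measured, and no value here separates treatment from library. Factors at a few UMIs, such as Lbx1, Tlx3 and Isl1, are limited by depth. No paired analysis was possible because each group has 1 sample.

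Of 901 single ratios between libraries under the alternatives, 819 stayed within the counting interval and 82 moved. Of 696 between classes, 651 stayed and 45 moved. Of 62 levels split by another factor, 38 stayed and 24 moved. None of these reversed a ratio past 2-fold. In the hot water bath Ebf1 by Prdm6 lay from 2.21 to 2.49, Zfhx3 by Prdm6 from -3.57 to -2.40, Ebf3 by Ebf2 from 1.82 to 2.41 and Creb5 by Nr4a2 from 3.07 to 3.29. In SNI with brush Ebf3 by Ebf2 lay from 1.66 to 2.10 and Pax8 by Pax2 from 2.88 to 3.08. These ranges are for all neuronal nuclei, where Pax8 by Pax2 was 3.04, and do not cover the values within a class. Within inhibitory nuclei Pax8 by Pax2 was 1.45 in SNI with brush. Within glutamatergic nuclei of the hot water bath Ebf1 by Prdm6 was 2.15 and Zfhx3 by Prdm6 was -2.25. The counts of factors past 2-fold over all neuronal nuclei were 11 higher with at most 0.5% mitochondrial UMIs and with a limit of 50 UMIs, and 4 lower as a mean over nuclei and with a fold of 1.5. In glutamatergic nuclei 5 were higher and 1 lower with at least 10 transmitter UMIs, 6 higher with a limit of 50 UMIs and 17 with a limit of 1 UMI. In inhibitory nuclei 21 were higher and 5 lower with a limit of 1 UMI, and 3 lower with a fold of 1.5, and 6 were higher and 0 lower within glycinergic nuclei. Between classes, 3 were higher in inhibitory nuclei with the 90% rule. Other UMI limits and folds change which factors are tested or called. For the rest the cause was not tested.

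The median number of factors on per nucleus was 2 in both libraries at 5000 UMIs and with at least 3 UMIs, 6 in both with at least 1 UMI, and 6 and 7 without thinning. Of the 8 leading hot water bath pairs, 1 reached a ratio of 2 in SNI with brush within inhibitory nuclei and 5 in a second draw. Of the 8 leading SNI with brush pairs, 1 reached it in the hot water bath with at least 1 UMI, 2 within glutamatergic and 1 within inhibitory nuclei. In the hot water bath Nr4a2 with Prdm6 reversed to 0.676 in a second draw, and Onecut2 with Prdm6 to 0.970 at 5000 UMIs and 0.942 in a second draw.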
